A study of Mus musculus with 25 samples.

Results

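Imprinted genes are transcribed mainly from the copy inherited from 1 parent, and the 10 described here are Dlk1, Meg3, H19, Igf2, Cdkn1c, Peg3, Peg10, Mest, Nnat and Grb10. They were taken from the RNA-seq tables by gene symbol, which gave 10 of 24439 gene rows, and from the ATAC-seq table by the gene that the authors annotated to each peak, which gave 24 of 65053 consensus peaks. Dlk1 held 6 of the peaks, Grb10 5, Nnat 4, Peg3 3, Peg10 and Cdkn1c 2 each, Igf2 and Meg3 1 each, and H19 and Mest 0.

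On mm9 several of the genes lie together. Dlk1 (chr12:110691033-110701546, plus strand) and Meg3 (chr12:110779211-110809936, plus) share a cluster. H19 (chr7:149761434-149764048, minus) and Igf2 (chr7:149836673-149852721, minus) lie side by side, with Cdkn1c (chr7:150644255-150646955, minus) further along. Peg3 (chr7:6656603-6683132, minus) is at the other end of chromosome 7. Peg10 (chr6:4697306-4710514, plus) and Mest (chr6:30673547-30698457, plus) are on chromosome 6, Nnat (chr2:157385814-157388258, plus) on chromosome 2 and Grb10 (chr11:11830511-11938686, minus) on chromosome 11.

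The groups were alpha TC1 clone 6 cells (αTC1), a glucagon-producing mouse line, and beta-TC-6 cells (βTC6), an insulin-producing one. Both arose from islet tumours of mice carrying an SV40 T antigen transgene, driven by a glucagon promoter in the first and an insulin promoter in the second. Each cell type is represented by 1 untreated line, αTC1 is a single clone, and the lines were grown in different media. Line, cell type and medium therefore cannot be told apart. RNA-seq covered 3 replicates of each line. ATAC-seq covered 5 replicates of each line and 9 mixtures in which αTC1 cells made up from 10% to 90% of the cells, with 1 library per mixture. Whether replicates were separate cultures is not stated, so p-values measure the spread between these libraries only.

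A germline imprint is DNA methylation at an imprinting control region that is laid down in the egg or the sperm and kept in the body's cells, by ZFP57 with TRIM28 and the maintenance methyltransferase DNMT1. It sets which parental copy of the neighbouring genes is used, through an insulator bound by CTCF at Igf2 and H19 or through a noncoding RNA at other loci. Many imprinted genes act on fetal growth, and in the endocrine pancreas several are known for roles in beta cell mass and insulin release. The reads were not split by parental copy here, so every value is the sum over both copies, and fewer cells using a gene cannot be told apart from less RNA per cell.

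RNA-seq libraries held 21954031 to 26033482 expected counts. Reads in consensus peaks ranged from 6903416 to 8300868 in αTC1, from 4397851 to 10374903 in βTC6 and from 5277983 to 7294832 in the mixtures. A gene was called differentially expressed (DE) at FDR < 5% and an absolute log2 fold change over 2 by the edgeR quasi-likelihood test. All 6 alpha marker rows were higher in αTC1, where they summed to 12354 to 14703 FPKM (fragments scaled to transcript length and library size) against 194 to 283 in βTC6. All 7 beta markers were higher in βTC6, with sums of 34101 to 51154 against 14.5 to 15.6 FPKM. Of 2 delta markers, the hormone Sst was at 207 to 325 FPKM in βTC6 and 0 in αTC1, and Hhex was at 0.13 or less. The PP marker Ppy was at 3.70 to 50.8 FPKM in βTC6 and 0.10 or less in αTC1. In αTC1, 1 of 3 acinar markers was DE (sums of 3.58 to 3.73 against 0.14 to 0.82 FPKM), as were 1 of 2 ductal markers (4.05 to 4.42 against 0) and 2 of 4 fibroblast markers (2.42 to 3.43 against 0.34 to 0.54). Of the 2 immune, 2 endothelial and 1 epsilon markers, which summed to 2.19, 0.29 and 0.88 FPKM at most, 1 was tested. This was Cd68, a macrophage protein, at 0.92 to 1.20 FPKM in αTC1 and 2.02 to 2.18 in βTC6 (log2 fold change 1.09 ± 0.21, edgeR adjusted p = 0.00136), which was not DE by edgeR or DESeq2. Prss2 and Col3a1 were at 0 in both lines, and the part of these differences in the results below was not tested.

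All 10 imprinted genes had FPKM values that did not overlap between the lines, and 7 of the 10 were DE. Dlk1, Meg3, Igf2 and Nnat were higher in βTC6, and Grb10, Peg10 and Mest were higher in αTC1. Peg3 passed the adjusted p threshold but not the fold threshold, and H19 and Cdkn1c lay under the filter of 1 FPKM in all replicates of either line and were not tested. Among the 12195 tested genes, 14.3% were DE, 10.2% were higher in βTC6 and 4.08% higher in αTC1, 74.6% had an adjusted p under the threshold, and 77.7% had values that did not overlap. Of the 8 tested genes, 6 had passed the filter through the line where they were higher and had therefore to differ, so the count is a description. A positive log2 fold change means a higher value in βTC6.

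**Figure D1:**
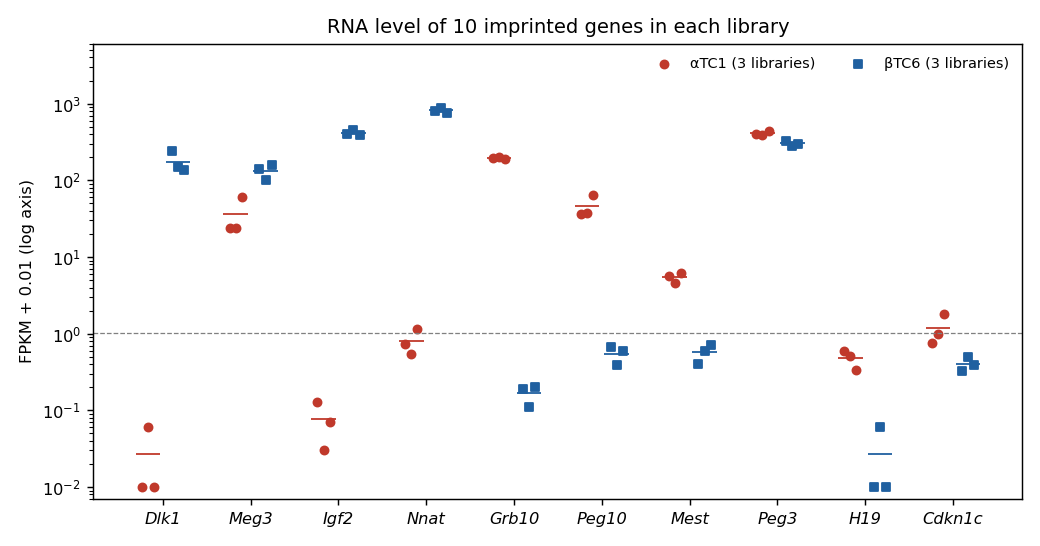
FPKM of the 10 imprinted genes in each RNA-seq library, on a log axis with 0.01 added, αTC1 as circles and βTC6 as squares, with a bar at the mean of 3 libraries and a dashed line at the filter of 1 FPKM. Dlk1, Igf2 and Nnat lie above 100 FPKM in βTC6 and near or under 1 in αTC1, Grb10 lies the other way, and Peg3 is above 250 in both lines.

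Among the ligands, Igf2, the fetal insulin-like growth factor, was at 400, 460 and 386 FPKM in the 3 βTC6 libraries and at 0.12, 0.02 and 0.06 FPKM in αTC1. The βTC6 libraries thus held 110486 counts in all against 9 in αTC1, with a log2 fold change of 13.48 ± 0.21 (SE, n = 3 per line, edgeR adjusted p = 1.11e-09). Dlk1, a membrane protein related to Notch ligands that restrains differentiation, was at 242, 151 and 135 FPKM in βTC6, and 1 read in a single αTC1 library was the only count there. The ratio of the summed counts, scaled to library size, was 20210 (95% exact interval for counting error, 3627 to 798297), and the fitted log2 fold change of 13.84 ± 0.47 (adjusted p = 2.75e-08) rests on the prior count that edgeR adds. Without αTC1 replicate 2, which held that read, the fitted value for Dlk1 was 15.73. βTC6 replicate 1 was the highest for Dlk1, and the lines did not come near each other in any library.

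Nnat, a small membrane protein of the endoplasmic reticulum linked to insulin processing, was at 807, 887 and 760 FPKM in βTC6, the highest FPKM of the 10 genes in either line. In αTC1 it was at 0.73, 0.53 and 1.14 FPKM, and the log2 fold change was 10.12 ± 0.19 (edgeR adjusted p = 1.81e-09). Meg3, a noncoding RNA from the same imprinted cluster as Dlk1 that is used from the other parental copy, was at 139, 99.8 and 159 FPKM in βTC6 and at 24.0, 23.9 and 60.1 FPKM in αTC1, so the lines did not overlap. Its log2 fold change of 2.07 ± 0.36 (adjusted p = 0.000704) was close to the fold threshold, and αTC1 replicate 3 stood at 2.64 times the mean of replicates 1 and 2 in library-scaled counts. Leaving out αTC1 replicate 1, αTC1 replicate 2 or βTC6 replicate 3 took it under the threshold, to 1.83, 1.83 and 1.93, and leaving out αTC1 replicate 3 raised it to 2.70. It was also under it with spike-in scaling, at 2.00, and with a spike-in covariate, at 1.91.

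Grb10, an adaptor that binds the insulin and IGF receptors and dampens their signal, was at 196, 200 and 187 FPKM in αTC1 and at 0.18, 0.10 and 0.19 FPKM in βTC6. The log2 fold change was -10.34 ± 0.17 (SE, n = 3 per line, edgeR adjusted p = 1.11e-09). The ligand Igf2 and this inhibitor were high in different lines. Peg10, a protein derived from a retrotransposon, was at 36.0, 37.7 and 64.8 FPKM in αTC1 and at 0.66, 0.38 and 0.58 FPKM in βTC6 (log2 fold change -6.68 ± 0.35, adjusted p = 3.27e-07). As with Meg3, αTC1 replicate 3 was the highest, at 1.78 times the mean of replicates 1 and 2 in library-scaled counts. In that library 3.25% of 11276 genes exceeded both other αTC1 replicates by over 1.5 times, against 0.0443% and 0.0887% for replicates 1 and 2. Mest, a hydrolase-like protein of growing mesoderm, was lower in level, at 5.63, 4.63 and 6.21 FPKM in αTC1 and 0.39, 0.59 and 0.70 FPKM in βTC6 (log2 fold change -3.51 ± 0.20, adjusted p = 6e-07). Mest shares 904 exonic bases with Copg2 on the opposite strand, and Meg3 shares 1228 with Gm17639. RSEM was run with its default parameters, which do not use strand, so reads of those stretches cannot be assigned to either gene.

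Peg3, a zinc finger protein, was the only member above 250 FPKM in all 6 libraries. Its 405, 395 and 442 FPKM in αTC1 lay above the 329, 283 and 299 FPKM in βTC6, and the log2 fold change of -0.32 ± 0.10 (edgeR adjusted p = 0.0206) was far from the fold threshold. The edgeR adjusted p of Peg3 no longer passed without αTC1 replicate 1 (0.0629), without αTC1 replicate 2 (0.0563) or with spike-in scaling (0.618). H19, a noncoding RNA that is reciprocal to Igf2, was at 0.59, 0.50 and 0.33 FPKM in αTC1 and at 0, 0.05 and 0 FPKM in βTC6. These are 75 counts against 1, a ratio of 77.1 (95% exact interval for counting error, 13.4 to 3086). H19 and Igf2 were thus each higher in a different line, and H19 stayed under 1 FPKM in both. Cdkn1c, the cyclin-dependent kinase inhibitor p57, was at 0.75, 0.98 and 1.81 FPKM in αTC1 and at 0.32, 0.49 and 0.38 FPKM in βTC6. Fitted without the filter, its log2 fold change was -1.55 ± 0.38 (edgeR adjusted p = 0.00362).

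In order of mean FPKM, αTC1 ran from Peg3 at 414 through Grb10 at 195, Peg10 at 46.1, Meg3 at 36.0 and Mest at 5.49 to Cdkn1c, Nnat, H19, Igf2 and Dlk1, all at 1.18 or less. The βTC6 order was Nnat at 818, Igf2 at 415, Peg3 at 303, Dlk1 at 176 and Meg3 at 132, followed by Mest, Peg10, Cdkn1c, Grb10 and H19 at 0.56 and less. Within αTC1 the values of Peg10 and Meg3 overlapped, as did those of Cdkn1c and Nnat, of Nnat and H19, and of Igf2 and Dlk1. Within βTC6 those of Dlk1 and Meg3 overlapped, as did those of Mest, Peg10 and Cdkn1c. These levels are per length and compare genes within a line.

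Neighbours of the 10 genes were next described by locus. At the Dlk1 and Meg3 cluster on chromosome 12, all 3 tested neighbours were DE, against 14.3% of all tested genes. The noncoding RNAs Rian and Mirg had higher and Begain lower values in βTC6. Mirg and Begain had passed the filter only through the line where they were higher. Rian was at 125, 113 and 106 FPKM in βTC6 and 21.5, 19.8 and 36.1 FPKM in αTC1 (log2 fold change 2.16 ± 0.22, edgeR adjusted p = 1.74e-05), and leaving out αTC1 replicate 2 took it to 1.99. Mirg was at 14.3, 14.3 and 13.5 FPKM in βTC6 and 1.46, 0.82 and 3.20 FPKM in αTC1, again highest in αTC1 replicate 3 (log2 fold change 3.02 ± 0.37, adjusted p = 7.2e-05, and 3.73 without that library). Begain, a synaptic scaffold gene at the edge of the cluster, was at 64.9, 64.4 and 98.0 FPKM in αTC1 and under 1 in βTC6 (log2 fold change -6.68 ± 0.26, adjusted p = 6.23e-08). Rtl1, the retrotransposon-like gene of the cluster, stayed at 0.21 FPKM or less and Dio3 at 0.02 FPKM or less, and neither was tested.

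At the Peg10 cluster on chromosome 6, 4 of 6 tested neighbours were DE, against 14.3% of all tested genes. Of these, Sgce, Calcr and Asb4 had passed the filter only through the line where they were higher. Sgce, which shares a promoter region with Peg10 and encodes a sarcoglycan, was at 27.0, 29.1 and 31.3 FPKM in αTC1 and 5.17, 0.77 and 1.84 FPKM in βTC6 (log2 fold change -3.43 ± 0.48, edgeR adjusted p = 0.000152, and -4.42 without βTC6 replicate 1). Ppp1r9a, a neuronal actin-binding protein, was -2.83 ± 0.09 on the log2 scale, from 19.4 to 24.0 FPKM in αTC1 to 2.33 to 2.87 FPKM in βTC6. Calcr, the calcitonin receptor, was at 12.9, 13.1 and 7.56 FPKM in αTC1 and at 0.06 or less in βTC6 (log2 fold change -8.95 ± 0.47). The βTC6 value of Calcr rests on 5 counts, and the fitted change, which depends on the prior count, was -10.48 without βTC6 replicate 3. Asb4 alone was higher in βTC6, at 3.61, 2.12 and 4.09 against 0.54, 0.53 and 1.11 FPKM (2.16 ± 0.36), and it fell under the fold threshold without αTC1 replicate 1, αTC1 replicate 2 or βTC6 replicate 3, at 1.96, 1.97 and 1.98, and with a spike-in covariate, at 1.93. Pon3 at 0.53 and Casd1 at -0.76 on the log2 scale were not DE, and Pon2 was not tested.

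Over all tested genes 14.3% were DE and 74.6% had an adjusted p under the threshold. At Igf2, H19 and Cdkn1c on chromosome 7, 4 of the neighbours listed were tested and 0 were DE by edgeR or DESeq2. Adjusted and unadjusted p were under the threshold for all 4. Their log2 fold changes were 1.14 for Osbpl5, 1.06 for Tssc4, -0.55 for Nap1l4 and -0.87 for Cd81, with 70.3 to 157 FPKM for Tssc4 and 47.8 to 110 FPKM for Cd81. Kcnq1, Phlda2, Slc22a18, Ascl2 and Tspan32 stayed at 0.27 FPKM or less. Beside Peg3, Zim1 was -1.74 ± 0.16 on the log2 scale (121 to 147 FPKM in αTC1, 27.6 to 45.6 in βTC6) and Usp29 0.43 ± 0.15. Copg2 at Mest was -1.66 ± 0.10 with 69.1 to 84.5 against 20.2 to 21.7 FPKM, Blcap, in whose intron Nnat lies, was 0.64 ± 0.10, and Ddc beside Grb10 was 0.33 ± 0.09. Nnat, Grb10 and Mest each had only 1 tested neighbour listed. The lists left out Ins2, the insulin gene directly beside Igf2, which is named here after its values were seen. Ins2 was DE in the direction of Igf2, at 23541 to 35748 FPKM in βTC6 and 0.19 to 0.64 FPKM in αTC1 (log2 fold change 16.64 ± 0.40, edgeR adjusted p = 4.14e-09, and 17.64 without αTC1 replicate 1).

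**Figure D2:**
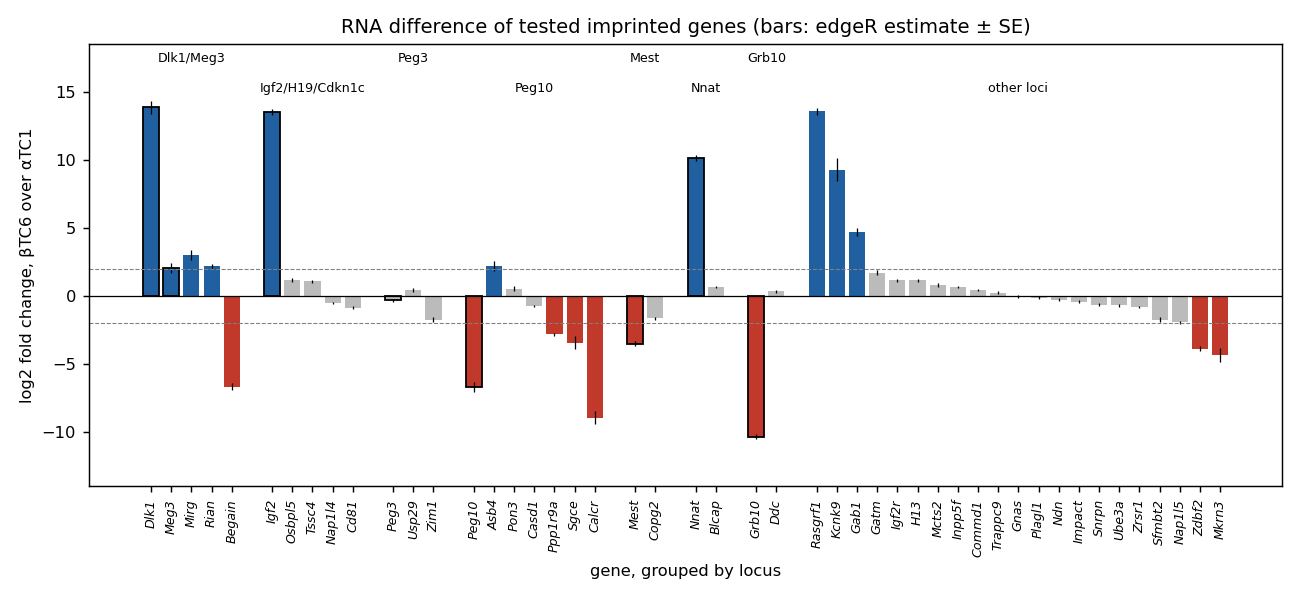
Log2 fold change (βTC6 over αTC1, edgeR estimate with SE as error bar, 3 libraries per line) of the tested imprinted genes, grouped by locus, with the members outlined, DE genes in colour, other genes in grey and dashed lines at 2 and -2. The Dlk1 and Meg3 cluster holds DE genes in both directions, as does the Peg10 cluster, and the other genes plotted for the Igf2, Nnat and Grb10 loci, which do not include Ins2, lie between the dashed lines.

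Of 57 genes listed as imprinted besides the 10 members, 39 were tested. Whether each is imprinted in these lines was not examined. Among the 39, 12 were DE, 6 with higher FPKM in βTC6 and 6 with higher FPKM in αTC1. The share over all tested genes was 14.3%. The median absolute log2 fold change of the 39 was 1.14, also with genes at 0 set to their bound, against 0.61 over all tested genes. Of the 39, 10 had passed the filter through 1 line alone and 29 in both lines. Among these 29, 3 were DE, so the counts and the median are descriptions. Outside the members' loci, Rasgrf1, a Ras activator, was at 42.1, 39.1 and 39.0 FPKM in βTC6 with 0 counts in any αTC1 library, at least 1493-fold higher with a floor of 3 counts over the group. Kcnk9, a potassium channel, was at 3.79, 1.65 and 2.36 FPKM and also had 0 counts in αTC1, at least 76.5-fold higher. Gab1, a docking protein for growth factor receptors, was at 1.14 to 1.45 against 0.03 to 0.08 FPKM (log2 fold change 4.68 ± 0.32). In the other direction stood Zdbf2, a zinc finger gene, at 92.1 to 123 FPKM in αTC1 and 4.89 to 8.39 in βTC6 (-3.89 ± 0.19), and Mkrn3, a ring finger gene, at 1.63 to 2.46 against 0 to 0.17 FPKM (-4.36 ± 0.53, and -5.03 without βTC6 replicate 3). Igf2r, which clears IGF2 from the cell surface, was at 39.7 to 50.4 FPKM in βTC6 and 20.9 to 22.0 FPKM in αTC1 (1.15 ± 0.10) and was not DE.

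Of 11 genes that lay down, maintain or read imprints 6 were tested and 0 were DE by edgeR or DESeq2, where edgeR called 14.3% of all tested genes. An adjusted p under the threshold was found for 4, and an unadjusted one for the same number. Over all tested genes the adjusted p was under it for 74.6%. Dnmt1 was at 97.2 to 108 FPKM in αTC1 and 47.9 to 52.0 FPKM in βTC6 (log2 fold change -1.01 ± 0.08). Ctcf was at 37.8 to 44.1 FPKM in αTC1 and 40.5 to 43.5 FPKM in βTC6 (log2 fold change 0.00 ± 0.10, edgeR adjusted p = 0.996). Dnmt3a, a methyltransferase that lays down new methylation, named after its values were seen, was at 9.30 to 13.4 FPKM in αTC1 and 30.8 to 34.1 FPKM in βTC6 (1.76 ± 0.11, adjusted p = 9.16e-07) and was not DE. Zfp57 was at 0.11 FPKM or less in every library, 4 counts in αTC1 and 1 in βTC6, so its level cannot be compared at this depth.

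Around the ligand Igf2, 12 genes of IGF signalling were listed and 4 tested, with 2 DE higher in βTC6 and 1 higher in αTC1. Over all tested genes 10.2% were DE higher in βTC6 and 4.08% higher in αTC1. Igf1r and Igfbp5 had passed the filter only through the line where they were higher. Igf1r, the signalling receptor of IGF1 and IGF2, was at 6.50, 4.73 and 4.82 FPKM in βTC6 and at 0, 0.02 and 0.02 FPKM in αTC1 (log2 fold change 8.58 ± 0.36, edgeR adjusted p = 8.29e-08). Igf1, the other ligand of this receptor, was under the filter and is named after its values were seen, at 0.67, 0.63 and 2.38 FPKM in αTC1 (174 counts) and 0, 0 and 0.05 FPKM in βTC6 (1 count). Its values were thus higher in αTC1, the opposite of Igf2. Insr, the insulin receptor, also named afterwards, was at 8.22 to 11.5 FPKM throughout (0.02 ± 0.09). Igfbp4, an IGF-binding protein, was at 50.8, 62.5 and 26.4 FPKM in βTC6 and 1.67 to 2.21 FPKM in αTC1 (3.79 ± 0.29), and Igfbp5, another, at 0.28 to 0.31 against 1.40 to 1.57 FPKM (-2.27 ± 0.17). Of 5 Notch pathway genes listed for Dlk1, 2 were tested and Notch2 was DE, at 1.21 to 1.42 FPKM in αTC1 and 0.16 to 0.24 in βTC6 (-2.69 ± 0.20). Notch2 had passed the filter through αTC1 alone, and 14.3% of all tested genes were DE. Notch1, under the filter and named after its values were seen, went the other way, at 0.20, 0.06 and 0.05 FPKM in αTC1 and 1.67, 1.03 and 0.94 FPKM in βTC6 (4.70 ± 0.30 when fitted without the filter, edgeR adjusted p = 3.39e-08). Of 6 cell cycle genes listed for Cdkn1c, all were tested and 0 were DE by edgeR or DESeq2, with 3 under the threshold by adjusted p and 4 by unadjusted p. The share by adjusted p over all tested genes was 74.6%.

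Chromatin accessibility was higher in βTC6 at peaks of Nnat, Dlk1 and Igf2 and higher in αTC1 at peaks of Peg10 and Cdkn1c. Of the 24 peaks, 8 were differentially accessible (DA: FDR < 5% and an absolute log2 fold change over 2, limma on log2(normalized read count + 1)). The 6 higher in βTC6 were 3 at Nnat, 2 at Dlk1 and 1 at Igf2, and the 2 higher in αTC1 were 1 at Peg10 and 1 at Cdkn1c. By adjusted p alone 12 were higher in βTC6, 8 were higher in αTC1 and 4 did not pass. In 19 of 24 peaks the 5 libraries of each line did not overlap. Over all 65053 peaks 18.3% were DA, 12.9% higher in βTC6 and 5.38% higher in αTC1, 78.0% had an adjusted p under the threshold and 63.9% did not overlap. With a pseudocount of 5 in place of 1, 0 of the 24 were DA by limma, all 8 being lost, and edgeR on the recovered whole reads called 11. By edgeR each of the 8 had a log2 fold change larger in size than by limma. It was -2.12 against -2.03 at the Peg10 peak and 3.97 against 3.15 at the Nnat peak at -42.5 kb. Within processing groups, 8 were DA in replicates 1 to 3 alone (6 higher in βTC6) and 8 in replicates 4 and 5 alone (7 higher in βTC6). Quantile normalization left 4 higher in βTC6 and 2 in αTC1, the Nnat peak at its start site (1.94) and the Dlk1 peak at -2.7 kb (1.64) falling under the fold threshold, and moved the share of all DA peaks that were higher in βTC6 from 70.6% to 52.5%.

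**Figure D3:**
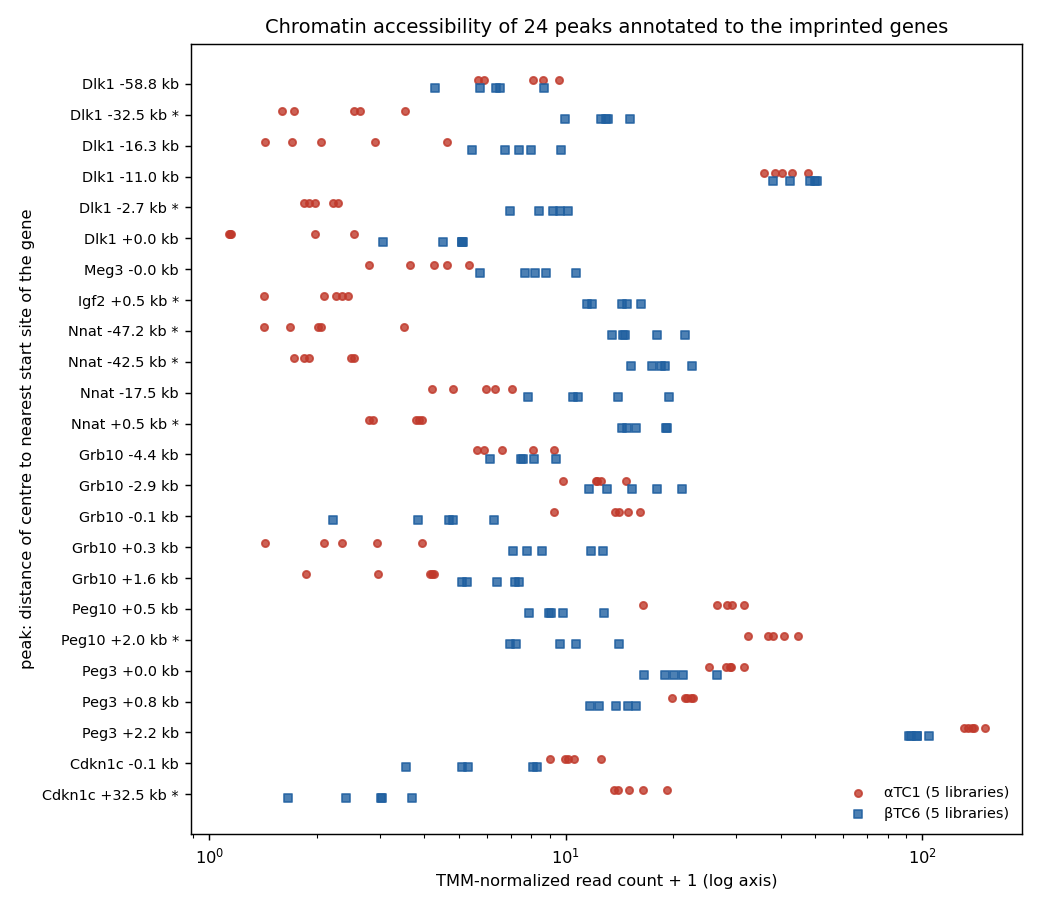
TMM-normalized read count plus 1, on a log axis, of the 24 peaks annotated to the imprinted genes, in 5 αTC1 libraries (circles) and 5 βTC6 libraries (squares), each peak named by the distance of its centre to the nearest annotated start site of the gene, with an asterisk where it was DA. The DA peaks of Nnat, Dlk1 and Igf2 lie to the right in βTC6, the Peg10 peaks to the right in αTC1, and the Peg3 peak at 2.2 kb is the highest in both lines.

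The peak nearest the Nnat start site, at chr2:157386997-157387411 over an exon, had normalized read counts of 1.80 to 2.94 in αTC1 (median 2.81) and 13.3 to 18.2 in βTC6 (median 14.7). Its log2 fold change was 2.27 ± 0.19 (limma, n = 5 per line, adjusted p = 1.41e-09). Far upstream lay a pair of peaks, at chr2:157338433-157338893 and chr2:157343104-157343571, at -47.2 and -42.5 kb from the start site (negative distances are upstream). The first had 0.42 to 2.52 in αTC1 and 12.5 to 20.5 in βTC6 (log2 fold change 2.99 ± 0.24), and the second 0.72 to 1.54 and 14.3 to 21.6 (3.15 ± 0.20, adjusted p = 3.84e-11), the largest difference among the 24 peaks. A peak between them and the gene, at -17.5 kb, was 1.10 ± 0.23 and not DA. The central stretch of the second, chr2:157343188-157343487 (mm9, plus strand), is shown for that reason, with the forkhead core TGTTTAC and the homeodomain core TAATTA in capitals:
Nnat distal peak: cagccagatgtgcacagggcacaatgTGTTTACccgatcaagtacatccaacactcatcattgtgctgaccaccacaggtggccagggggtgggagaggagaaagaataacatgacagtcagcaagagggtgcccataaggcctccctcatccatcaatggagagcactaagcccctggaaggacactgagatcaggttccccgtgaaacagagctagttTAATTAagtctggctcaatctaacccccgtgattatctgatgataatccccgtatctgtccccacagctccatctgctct

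At Dlk1 the peak over the start site, chr12:110691612-110691903, was at 0.14 to 1.54 in αTC1 and 2.07 to 4.14 in βTC6 (log2 fold change 1.59 ± 0.23, limma adjusted p = 3.37e-06), and its mean was the lowest of the 6 Dlk1 peaks in both lines. It passed the fold threshold with a pseudocount of 0.5, at 2.06, and by edgeR on the recovered reads, at 2.54. Upstream, the peak at -2.7 kb, chr12:110688081-110688665, was at 0.84 to 1.30 against 5.96 to 9.11 (2.11 ± 0.20), and the peak at -32.5 kb, chr12:110658198-110658924, at 0.60 to 2.53 against 8.95 to 14.2 (2.46 ± 0.24, adjusted p = 1.21e-08). The -16.3 kb peak was 1.66 ± 0.28, and 2.04 by edgeR on the recovered reads. The most open Dlk1 peak, at -11.0 kb, was at 35.0 to 46.7 in αTC1 and 37.1 to 49.7 in βTC6 and differed by 0.16 ± 0.10 (adjusted p = 0.169), and the -58.8 kb peak by -0.27 ± 0.23. The peak at -11.0 kb, whose groups overlapped, thus lay between peaks whose groups did not. The -32.5 kb peak carries the largest Dlk1 difference, and its stretch chr12:110658449-110658748 (mm9, plus strand) is given with the E-boxes CAGATG and CAGCTG in capitals:
Dlk1 upstream peak: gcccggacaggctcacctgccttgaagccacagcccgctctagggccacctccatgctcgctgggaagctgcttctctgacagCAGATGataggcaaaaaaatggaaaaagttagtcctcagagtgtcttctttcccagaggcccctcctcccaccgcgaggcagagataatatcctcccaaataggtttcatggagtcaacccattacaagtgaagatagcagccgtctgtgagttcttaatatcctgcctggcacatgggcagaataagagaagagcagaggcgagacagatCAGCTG

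The single peak annotated to Meg3 lay over its start site, chr12:110778988-110779395, at 1.80 to 4.33 in αTC1 and 4.73 to 9.70 in βTC6 (log2 fold change 0.99 ± 0.23, limma adjusted p = 0.000588). Another peak over a Meg3 exon, chr12:110781070-110781367, was annotated to Mir1906-1 and looked at after its values were seen. It was at 1.20 ± 0.27 in αTC1 and 7.19 ± 1.98 in βTC6 (SD, n = 5, log2 fold change 1.87 ± 0.22, limma adjusted p = 1.53e-07) and was not DA, but passed the fold threshold by edgeR on the recovered reads, at 2.57. At Igf2 the annotated peak, chr7:149846265-149846919, which covers exonic bases of Igf2 and of the antisense gene Igf2as, was at 0.42 to 1.44 in αTC1 and 10.4 to 15.2 in βTC6 (2.71 ± 0.22, adjusted p = 7.55e-10). A peak 23 bases from an Igf2 start site, annotated to Igf2os and looked at after its values were seen, was at 0.80 ± 0.44 in αTC1 and 18.6 ± 1.97 in βTC6 (SD, n = 5, log2 fold change 3.47). The next peak, annotated to Ins2 and also looked at afterwards, was 3.50. By edgeR on the recovered reads these were 4.52 and 4.21. The H19 gene overlapped 0 consensus peaks, the nearest lying 43.2 kb from its start sites, and Mest overlapped 0 with the nearest at 14.1 kb, so neither gene has an accessibility value.

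**Figure D4:**
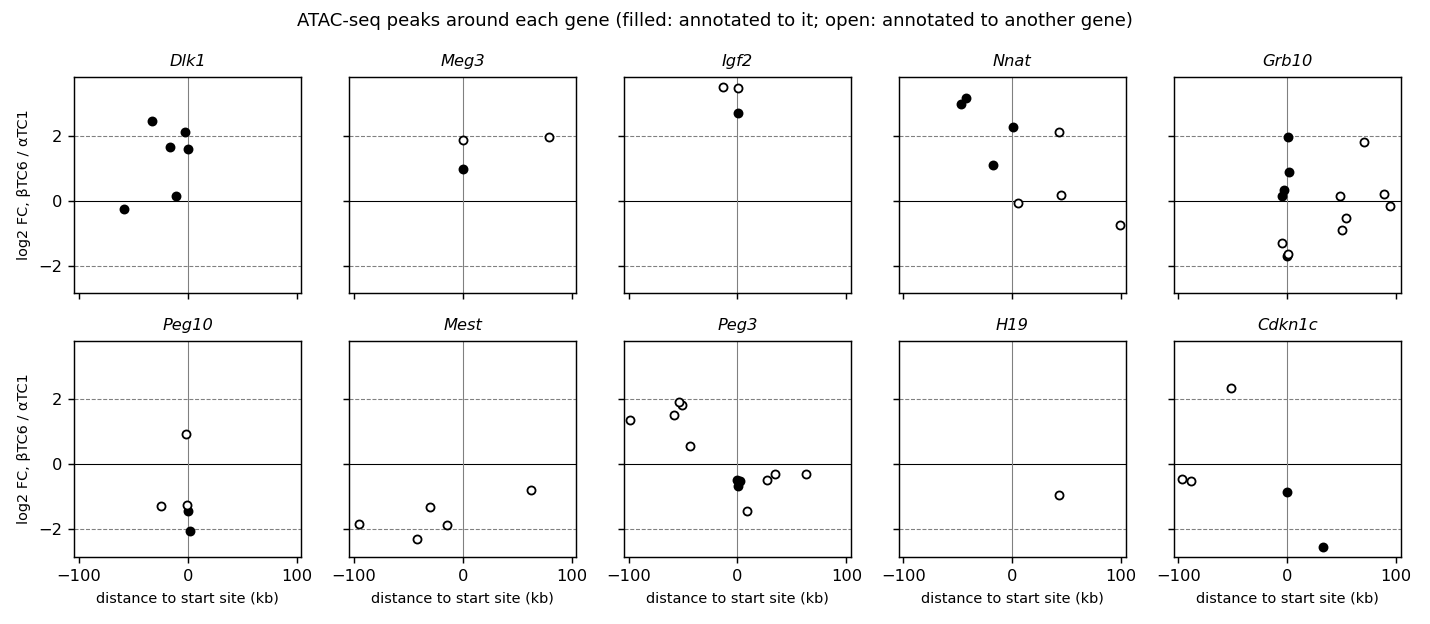
Log2 fold change of ATAC-seq peaks (βTC6 over αTC1) against the distance of the peak centre to the nearest start site of each imprinted gene in kb, within 100 kb, for peaks annotated to the gene (filled) and to another gene (open), with dashed lines at 2 and -2. Peaks around Igf2 and most of those around Dlk1 and Nnat lie above 0, those around Mest below 0, and Grb10 has peaks on both sides of 0 next to its start sites.

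Grb10 was the gene whose peaks split. At a start site, and partly over an exon, the peak at chr11:11937168-11937895 was at 8.23 to 15.2 in αTC1 and 1.22 to 5.27 in βTC6 (log2 fold change -1.70 ± 0.25, limma adjusted p = 3.29e-06), in the direction of the RNA. Further into the gene, the peak at chr11:11925558-11926445 lay 0.3 kb from another annotated start site and covered 487 exonic bases of Grb10. It was at 0.43 to 2.95 in αTC1 and 6.10 to 11.7 in βTC6 (1.95 ± 0.27, limma adjusted p = 1.37e-06). This was against the direction of the RNA, which was at 0.19 FPKM or less in βTC6. Neither was DA, and the second passed the fold threshold without αTC1 replicate 1 or 2 or βTC6 replicate 2 or 5, at 2.02, 2.13, 2.02 and 2.05, and in replicates 4 and 5 alone, at 2.46. It also passed with a pseudocount of 0.5, at 2.23, and by edgeR on the recovered reads, at 2.44 (adjusted p = 1e-06). The other Grb10 peaks were 0.89, 0.34 and 0.14 on the log2 scale. A pair of peaks inside Grb10 was annotated to Ddc and looked at after their values were seen, and both were higher in αTC1. The one at chr11:11837313-11837843, over an exon and 1041 bases from a Grb10 start site, was at 13.1 to 19.3 in αTC1 and 3.69 to 6.85 in βTC6 (-1.65, limma adjusted p = 3.12e-08). The other, at chr11:11860900-11861205, was at 3.79 to 7.21 against 0.57 to 2.07 (-1.28, adjusted p = 4.1e-05). The peak at 0.3 kb, labelled intron-side below although it also covers an exon, and the start-site peak are rich in CpG. They hold 33 and 45 CpG in the central 300 bases against a median of 4 over all peaks. The exon-free stretches below were chosen by length, up to 300 bases, and then by the most CpG. They hold 30 CpG in 283 bases and 53 in 300, with the CpG in capitals (chr11:11925558-11925840 and chr11:11937429-11937728, mm9, plus strand, the gene being on the minus strand):
Grb10 intron-side peak: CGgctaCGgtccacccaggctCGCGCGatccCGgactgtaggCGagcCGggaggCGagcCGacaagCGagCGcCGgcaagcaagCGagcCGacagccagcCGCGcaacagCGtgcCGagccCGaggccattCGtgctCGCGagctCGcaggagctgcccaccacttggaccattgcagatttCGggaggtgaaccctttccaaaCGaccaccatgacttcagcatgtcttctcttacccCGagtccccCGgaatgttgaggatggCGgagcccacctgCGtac
Grb10 start-site peak: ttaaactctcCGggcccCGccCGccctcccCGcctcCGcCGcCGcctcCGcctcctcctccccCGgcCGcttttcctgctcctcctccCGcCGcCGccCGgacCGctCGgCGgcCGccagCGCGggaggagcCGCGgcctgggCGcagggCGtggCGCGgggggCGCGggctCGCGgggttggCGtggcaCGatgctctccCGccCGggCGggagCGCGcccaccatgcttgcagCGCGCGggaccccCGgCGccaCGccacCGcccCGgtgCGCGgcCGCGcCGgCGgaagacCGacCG

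Peg10 was open in both lines and more so in αTC1. The peak over its start, chr6:4697362-4698340, was at 15.5 to 30.5 in αTC1 and 6.85 to 11.8 in βTC6 (log2 fold change -1.43 ± 0.17, limma adjusted p = 2.25e-07), and the intron peak, chr6:4699072-4699640, at 31.5 to 43.9 against 5.95 to 13.1 (-2.03 ± 0.17, adjusted p = 1e-09). The latter lay at the fold threshold and was no longer DA without αTC1 replicate 5, βTC6 replicate 1 or βTC6 replicate 3, at -1.98, -1.94 and -1.92, or in replicates 4 and 5 alone, at -1.88. The RNA of Peg10 was near 0 in βTC6 while these peaks held 43 to 92 recovered reads per βTC6 library. Peaks on chromosome 6 had a median log2 fold change of -0.79 and those within 5 Mb of Peg10 of -0.65, against 0.00 over all peaks, and the part of this shift in the Peg10 values was not tested. For Mest the median within 5 Mb was -1.16, for Dlk1 and Meg3 -0.48, for Igf2 -0.53, for Grb10 -0.14 and for Nnat -0.11. Of the peaks annotated to Sgce and looked at after their values were seen, the one 0.4 kb before the Peg10 start site was -1.26 and the one 1.8 kb before it 0.94, which was higher in βTC6.

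Peg3 held the peak with the highest values of the 24 in both lines. This intron peak, chr7:6680070-6681860, was at 130 to 148 in αTC1 and 90.9 to 103 in βTC6 (log2 fold change -0.52 ± 0.08, limma adjusted p = 3.82e-06), the peak over its start site at 24.2 to 30.5 and 15.6 to 25.6 (-0.48 ± 0.12), and the peak between them differed by -0.67 ± 0.12. Each was close to the median of -0.61 over peaks within 5 Mb and to -0.57 over chromosome 7. A further intron peak, chr7:6667270-6667744, annotated to Peg3os and looked at after its values were seen, was -1.44 ± 0.26. The highest peak held 9 matches of the YY1 core GCCATNTT, all on the minus strand, a number reached by 9 of 65053 peaks, of which 499 were as wide as its 1791 bases. The 300-base window with the most matches nearest its centre, chr7:6680870-6681169 (mm9, plus strand), is shown with the matches, read from the other strand, in capitals:
Peg3 intron peak: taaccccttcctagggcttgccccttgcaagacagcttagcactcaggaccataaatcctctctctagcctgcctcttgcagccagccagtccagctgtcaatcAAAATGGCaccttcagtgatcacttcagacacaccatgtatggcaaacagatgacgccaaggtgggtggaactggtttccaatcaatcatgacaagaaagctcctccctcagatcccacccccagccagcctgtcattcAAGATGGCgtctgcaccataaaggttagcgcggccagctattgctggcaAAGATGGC

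Cdkn1c had a start-site peak, chr7:150646782-150647346, at 8.01 to 11.6 in αTC1 and 2.57 to 7.30 in βTC6 (log2 fold change -0.84 ± 0.22, limma adjusted p = 0.00199), with groups that did not overlap. The median over the 205 peaks within 5 Mb of Cdkn1c was -0.52, and its part in this value was not tested. Its other peak, chr7:150614085-150614780, 32.5 kb beyond the start site, was at 12.6 to 18.2 in αTC1 and 0.66 to 2.71 in βTC6 (-2.54 ± 0.23, adjusted p = 3.53e-09). The stretch chr7:150614283-150614582 (mm9, plus strand) of this most αTC1-biased of the 24 peaks is shown with TAATTA and the E-box CAGATG, on either strand, in capitals:
Cdkn1c distal peak: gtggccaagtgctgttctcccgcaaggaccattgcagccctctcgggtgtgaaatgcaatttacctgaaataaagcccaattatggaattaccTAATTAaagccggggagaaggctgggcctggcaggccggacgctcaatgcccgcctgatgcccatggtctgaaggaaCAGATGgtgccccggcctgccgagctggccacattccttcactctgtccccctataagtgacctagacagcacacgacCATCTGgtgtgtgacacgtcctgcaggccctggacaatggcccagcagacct

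Short motifs, 8 in all, were searched on both strands in the central 300 bases of each peak, and none of them contains another in full. TGCCGC, the ZFP57 core, was in 7 of 24 peaks (29.2%) and in 9.53% of all peaks. The other counts of 24 were 2 for the YY1 core GCCATNTT (5.57% of all peaks), 3 for the CTCF core AGGGGGC (7.56%), 2 for TGTTTAC (8.80%), 3 for TAATTA (9.86%), 0 for the RFX site GTTGCNAT (3.52%), 4 for CAGCTG (23.8%) and 7 for CAGATG (31.2%). The median GC content of the windows was 56.8% at the 24 peaks and 48% over all, with 11.5 and 4 CpG, and its part in the TGCCGC count was not tested. A match is a description of the letters and not of binding, and peaks of 1 gene are not independent.

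The mixtures were not used in calling peaks DA. In all 8 DA peaks the normalized read count followed the share of αTC1 cells over the 9 mixtures, falling for the 6 peaks higher in βTC6 and rising for the 2 higher in αTC1. Absolute Pearson correlations ran from 0.851 to 0.968 (exact permutation test, 2-sided, n = 9, p at most 0.00347, and at most 0.00428 after Benjamini-Hochberg adjustment over all 11911 DA peaks), and Spearman rho from 0.850 to 0.983 in size (exact permutation p at most 0.00607). Of all DA peaks 97.6% passed the same test in the direction of the lines, so the count is not particular to these genes. The median correlation in that direction was 0.928 over all DA peaks and 0.922 over the 8. At Nnat the -42.5 kb peak went from 13.4 at 10% αTC1 cells to 6.87 at 50% and 1.83 at 90%, and at Peg10 the intron peak from 13.6 to 24.4 and 33.5. Without the mixtures of 10% and 90%, the correlation was weakest for the Dlk1 peak at -32.5 kb (r = -0.651, exact permutation test, p = 0.105) and the Igf2 peak (r = -0.784, p = 0.0464), and it was 0.865 or more in size for the other 6 (p at most 0.0147).

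The mixtures of the 3 Nnat peaks lay below the straight line between the pure means in 9 of 9 mixtures, with a mean deviation of -22.9%, -14.1% and -24.4% of the difference between the lines in the order -47.2, -42.5 and 0.5 kb. The Igf2 peak lay below it in 8 of 9, with a mean of -17.9%. Over all 8409 peaks called higher in βTC6 the median deviation was -2.92%, with quartiles of -11.2% and 6.49%. It was -1.90% and 2.76% at the Dlk1 peaks at -32.5 and -2.7 kb. At the Peg10 peak it was 8.06% and at the Cdkn1c peak -5.17%, against a median of 5.02% for the 3502 peaks higher in αTC1. These are descriptions, with 1 library per mixture and mixing shares taken from the labels.

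**Figure D5:**
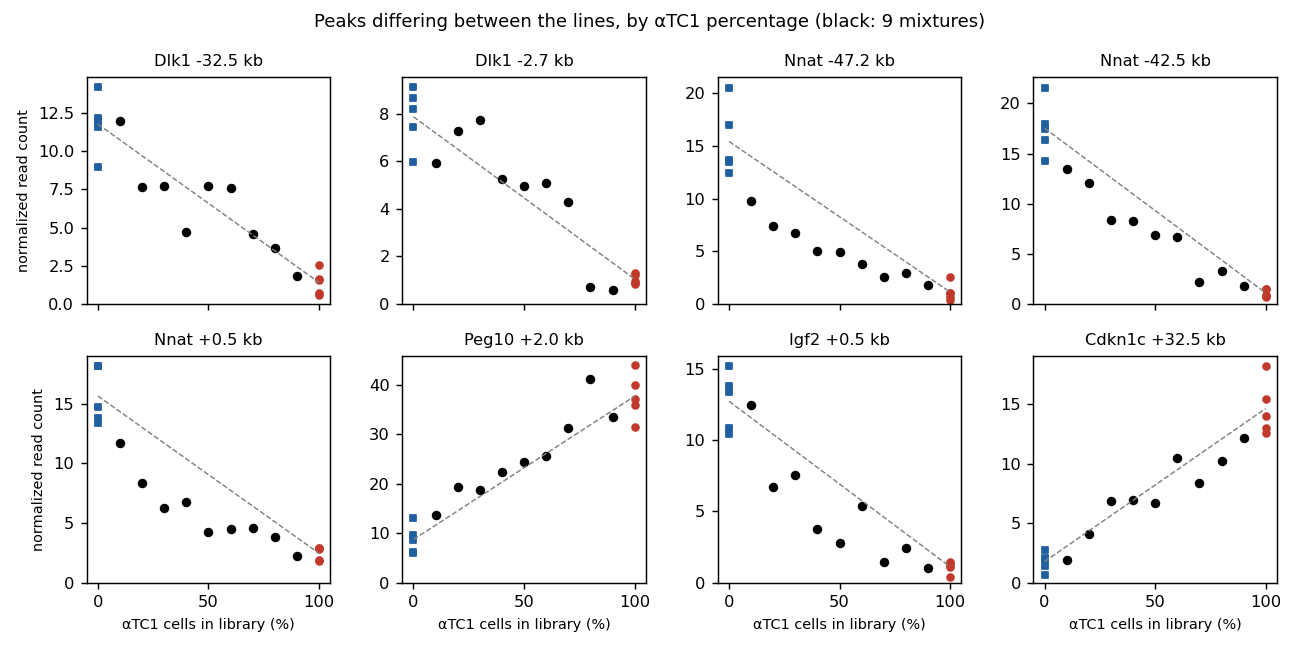
TMM-normalized read count of the 8 DA peaks against the percentage of αTC1 cells in the library, for 9 mixtures (black), 5 βTC6 libraries at 0% (squares) and 5 αTC1 libraries at 100% (circles), with a dashed line between the pure means. The 6 peaks higher in βTC6 fall and the 2 higher in αTC1 rise from left to right, and the Nnat mixtures lie below the line.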

How the data were processed

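The members and the gene lists were chosen with earlier results of these data known. RNA-seq libraries of 3 αTC1 and 3 βTC6 replicates and ATAC-seq libraries of 5 and 5 replicates and 9 mixtures were used, grouped by the labels. Per the paper's methods, the authors deposited RSEM expected counts and FPKM (KAPA stranded kit, ERCC spike-ins, Trim Galore, Bowtie 2, RSEM 1.2.12 with default parameters and Ensembl transcripts on mm9). The authors deposited ATAC-seq signal in the form of read counts scaled by TMM, made with Trimmomatic 0.32, BWA 0.7.9a, Picard 1.95, MACS 2.1.0 per library and DiffBind 2.2.5 consensus peaks, with the nearest gene from HOMER 4.6. The deposited distance column is another measure, given by the authors in bases. Versions are from the submitters' processing notes. Each library's values were whole multiples of its lowest value for 100% of values (tolerance 0.01 reads), which gave the recovered reads.

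Expected counts were rounded and tested with edgeR 4.0.16 (TMM, glmQLFit, glmQLFTest) where FPKM reached 1 in the 3 libraries of a line, and peaks with limma 3.58.1 (eBayes with trend), both over the whole table with Benjamini-Hochberg adjustment. The SE of a gene is its absolute log2 fold change over the square root of F. Both scripts were tested on simulated data. Alternatives covered DESeq2 1.42.0, spike-ins, filters, pseudocounts, normalization, edgeR on recovered reads, processing groups (replicates 1 to 3 against 4 and 5, for which the study computed mitochondrial reads differently), a replicate block and leaving out each library. Named genes were all members, neighbours at their loci, up to 5 DE imprinted genes in each direction, DE regulators and partners, and Igf2r, Igf1r, Zfp57, Ctcf and Dnmt1. Named peaks were the nearest to a start site, the most changed and all DA peaks of each member, and the remaining member peaks are given to account for all 24. Cd68, Ins2, Insr, Igf1, Notch1, Dnmt3a and the peaks annotated to Igf2os, Ins2, Ddc, Mir1906-1, Sgce and Peg3os were added after their values were seen. Positions and exons are from GENCODE vM1 on mm9 (NCBIM37), and sequences from the same build. Depth limits low values: intervals and the floor of 3 counts cover counting error only. Of the listed genes, 7 had no row in the RNA-seq tables under their symbol (Kcnq1ot1, Nctc1, Zim3, Zfp264, Cep41, Airn and Peg13) and were not analysed here.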

Additional observations from a re-analysis of the deposited data

How the results depend on the processing

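Of the 10 members 7 were DE, and the count was 6 to 8 under every alternative, 6 to 7 when a library was left out, Meg3 being lost or, without the filter, H19 added. The other imprinted genes gave 10 to 13 when a library was left out, against 12, and 18 without the filter, where 55 were tested. Over all genes 1743 were DE, 1729 to 1762 when a library was left out, and 3530 of 19570 without the filter. Of the 24 peaks 8 were DA, 7 to 9 when a library was left out, 6 after quantile normalization, 10 with a pseudocount of 0.5, 11 with edgeR on recovered reads and 0 with a pseudocount of 5, which shrinks the log2 fold change of low values. Counting peaks within 100 kb of a start site gave 13 of 61. Over all peaks 11911 were DA, against 2487 with a pseudocount of 5, 19533 with edgeR on recovered reads and 11465 to 12334 when a library was left out. Quantile normalization moved the share of DA peaks that were higher in βTC6 from 70.6% to 52.5%, and for the 24 peaks the split from 6 and 2 to 4 and 2. Without the outermost mixtures 6 of the 8 DA peaks followed the composition after adjustment over the 8. No DE gene or DA peak among those recomputed changed direction under the alternatives run, and Ctcf, which was near 0 and not called, moved between -0.09 and 0.06. Same-numbered replicates did not pair (correlation of deviations -0.036 to 0.021 in RNA-seq, -0.002 to 0.069 in ATAC-seq), and the replicate block left 7 member genes, 12 other imprinted genes, 1744 genes, 8 member peaks and 11911 peaks called.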
